A study of Mus musculus with 6 samples.

Results

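The genes described here encode ion channels of the cell membrane and related proteins, measured by RNA sequencing in hearts of mouse embryos at embryonic day 11.5. They comprise voltage-gated sodium, calcium and potassium channels, their auxiliary subunits, and the pacemaker channels opened by hyperpolarization. The names also take in inward rectifier, two-pore-domain leak, and calcium- or sodium-activated potassium channels, and TARP proteins that traffic glutamate receptors. Members were taken by name from the deposited table, as symbols that start with Kcn, Scn, Cacna, Cacnb, Cacng or Hcn and hold a digit, without Kcne3, Kcnq1ot1 and names starting Scnn or Scnm. Of 137 rows named in this way, 60 had a mean of at least 0.5 FPKM over the 6 libraries and are the members, among 38918 rows in all. FPKM counts fragments relative to the length of the transcript and the size of the library, so levels of different genes can be set side by side. The members comprise 38 of 93 potassium channel genes, 5 of 14 sodium channel genes, 8 of 14 Cacna, 3 of 4 Cacnb and 4 of 8 Cacng genes of calcium channels, and 2 of 4 HCN genes. The 3 members closest above the minimum were Cacna1s, Cacng8 and Kcnf1 with means of 0.510, 0.526 and 0.530 FPKM, and just below it lay Kcnn1 and Scn4b, among others, with 0.474 and 0.473 FPKM.

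The series compares 3 libraries of control hearts with 3 libraries of mutant hearts, all on the C57/BL6 background. Controls carried 1 floxed and 1 wild-type allele of Tie2 (gene symbol Tek), the angiopoietin receptor of endothelial cells. Mutants were Nfatc1Cre:Tie2 flox/flox, in which both alleles were floxed and Cre came from the endocardial gene Nfatc1, so that the labels give Cre to the mutants alone and an effect of Cre cannot be told apart from the loss of Tie2. RNA came from 18 whole hearts of each genotype and was, per the series text, combined within a genotype before it was divided, so the spread between libraries may be technical and p-values measure only that spread. In whole-heart RNA, fewer cells of a type and less RNA per cell cannot be told apart.

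An action potential of a heart muscle cell begins with sodium entry through voltage-gated sodium channels, is carried on by calcium entry through L-type channels, and ends when potassium leaves through delayed rectifier channels. Inward rectifier potassium channels hold the resting potential of working myocardium. In pacemaker cells, HCN channels and T-type calcium channels bring the membrane slowly towards threshold, and in the early embryonic heart these currents are found more widely than in the adult. Pore subunits form the ion path, while beta, alpha2delta, gamma, KCNE and KChIP subunits set how many channels reach the membrane and how they gate.

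No member passed the test between genotypes. In limma on log2(FPKM + 1), fitted over the 14378 genes that reached the same minimum and adjusted by Benjamini-Hochberg, 0 of 60 members were lower and 0 were higher at an adjusted p under 0.05, beside 0.153% of all genes tested (0.104% lower and 0.0487% higher). At an unadjusted p under 0.05 there were 4 members, 3 lower, with Kcng2 and Kcnk3 among them, and Cacna1s higher, which is 6.67% of the members beside 6.61% of all genes (4.17% lower and 2.45% higher). A log2 fold change of at least 0.58 in size, on this scale with a pseudocount of 1, was found for 2 members, 1 lower and 1 higher, the latter being Cacna1g, or 3.33% beside 2.93% of all genes (1.35% lower and 1.58% higher). The median log2 fold change, mutant minus control, was 0.03 over the members and -0.01 over all genes tested, with 36 members above 0 and 24 below. For 36 of the 60 members the 95% interval of the difference lay within 0.5 of 0 on the log2 scale, beside 8752 of the 14378 genes tested. The intervals of the other members reached past that size. The pseudocount of 1 shrinks the differences of low genes, so an interval within this bound does not show a small change for them.

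The control and mutant libraries did not overlap for 12 members, 6 of them lower and 6 higher in mutants. This is 20% of the members, beside 13.4% of all genes tested. By direction it is 10% lower beside 7.87% and 10% higher beside 5.54%. Among the lower genes were Kcng2, Kcnk3, Kcnh2, Kcnj11 and Kcng1, and the higher genes were Cacna1s, Kcnt2, Kcnip1, Kcnj2, Scn10a and Scn2b. With 3 libraries against 3, an exact two-sided permutation test of a single gene cannot give a p below 0.1. Among markers of other cells, most endothelial ones were lower in mutants. The 12 endothelial markers summed to 352 to 406 FPKM in controls and 279 to 317 FPKM in mutants, and 8 of the 12 had every mutant library below every control, with 0 called in limma and 8 at an unadjusted p under 0.05, all lower. No endothelial marker was at 0 in all 6 libraries. Of 12 erythroid markers in the table, the embryonic globin genes Hbb-y and Hba-x were called higher, but both are listed at exactly 0 in all 3 controls, beside 17557 to 23965 FPKM for Hbb-y and 11128.5 to 18708.5 FPKM for Hba-x in mutants. The other 10 summed to 9682 to 14560 FPKM in controls and 8038.5 to 13722.6 FPKM in mutants, with overlap, and 9 of the 12 had a log2 fold change below 0. Of the 12 cardiomyocyte markers, 11 had a log2 fold change below 0, with a median of -0.21. Only 2 of them had every mutant library below every control, and 0 had an unadjusted p under 0.05 in limma. Their sum was lowest in mutant replicate 1. The part of these cells in the channel values was not tested.

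**Figure D1:**
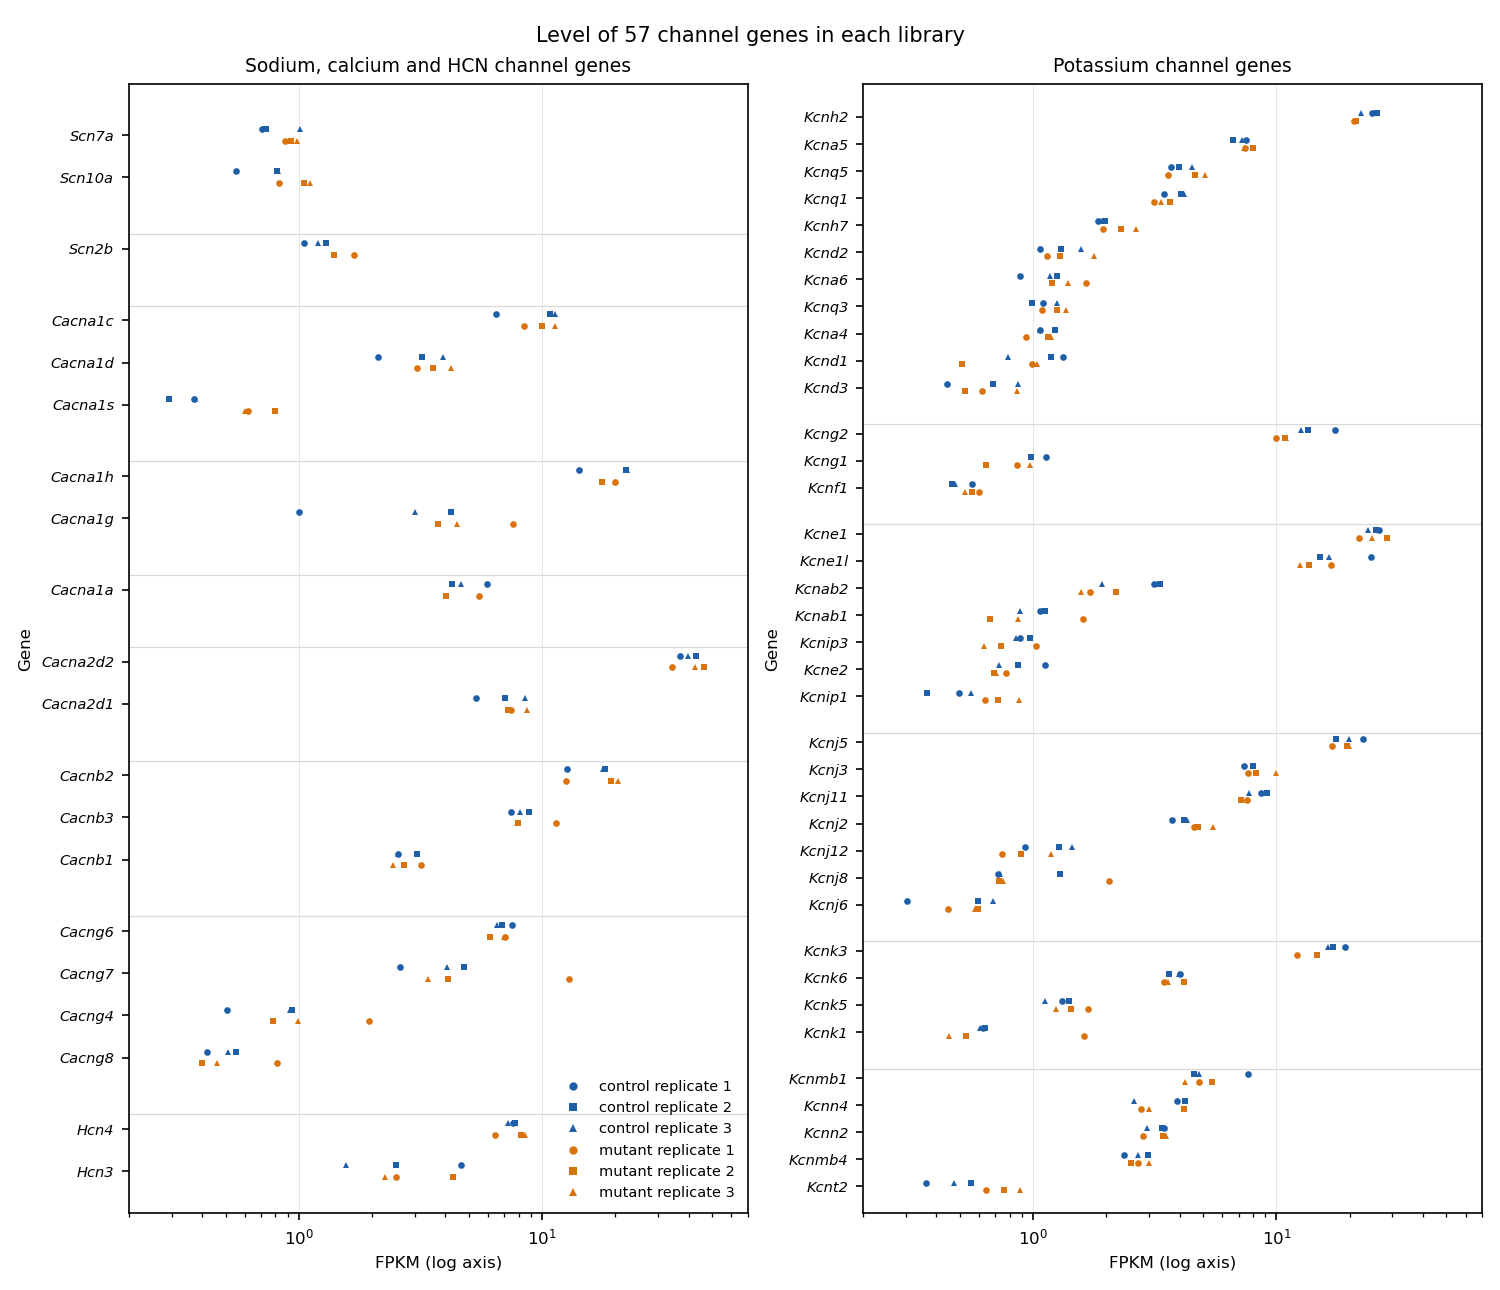
FPKM of each of 57 channel genes in the 3 control (blue) and 3 mutant (orange) libraries on a log axis, with 1 symbol per library and lines between roles. Cacna2d2, Kcne1 and Kcnh2 stand highest, and the control and mutant points of Cacna1s lie clearly apart.

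Tek, the targeted gene, stood at 22.4, 25.7 and 16.6 FPKM in the control libraries, with 3.38, 3.13 and 3.13 FPKM in the mutant libraries (limma, adjusted p = 0.00183). Library totals lay between 481334 and 582261 FPKM, and read depth is unknown. The heart identity of the samples was checked with 12 cardiomyocyte markers such as Tnnt2, Myh6 and Actc1, all of them tested. They summed to 26236 to 27378 FPKM in controls, and to 25365 and 27426 FPKM in mutant replicates 3 and 2. Mutant replicate 1 stood apart at 18100 FPKM.

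The channel genes ranged from 0.510 to 40.4 FPKM in mean level, with a median of 2.85 FPKM beside 8.95 FPKM for all genes tested. A mean of 10 FPKM or more was reached by 9 members, 11 lay between 5 and 10, 25 between 1 and 5, and 15 under 1 FPKM. In order of mean level the highest were Cacna2d2 at 40.4, Kcne1 at 25.2, Kcnh2 at 22.7, Kcnj5 at 19.4, Cacna1h at 19.3, Cacnb2 at 16.8, Kcne1l at 16.4, Kcnk3 at 15.7 and Kcng2 at 12.6 FPKM. The ranges of the libraries of neighbours in this order overlapped from Kcne1 to Kcng2, and only the range of Cacna2d2 lay wholly above that of the next gene. Kcnh2 and Kcne1, which encode subunits of the rapid and slow delayed rectifiers, lay above Scn10a, Scn7a and Scn2b in each library.

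Sodium channel pore subunits open the upstroke of the action potential. Scn10a, which encodes Nav1.8 and is best known from sensory neurons, was at 0.554, 0.812 and 0.821 FPKM in controls, against 0.828, 1.05 and 1.11 FPKM in mutants. Every mutant library of Scn10a lay above every control, though the closest pair was nearly level, and the difference did not pass (0.21 ± 0.14, SE, adjusted p = 0.805). Scn7a, which encodes the sodium-sensing channel Nax, stood at 0.706, 0.733 and 1.01 FPKM in controls, against 0.878, 0.928 and 0.985 FPKM in mutants, and its libraries overlapped.

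Sodium channel beta subunits are immunoglobulin-domain proteins that modulate gating. Scn2b, which encodes the beta2 subunit that links covalently to the pore, stood at 1.05, 1.29 and 1.1995 FPKM in control hearts compared with 1.68, 1.40 and 1.39 FPKM in mutant hearts. Every mutant library lay above every control, and the difference did not pass (0.19 ± 0.12, SE, adjusted p = 0.804). Scn3b and Scn4b were under the minimum, Scn4b at 0.691, 0.390 and 0.493 FPKM in controls, against 0.339, 0.355 and 0.568 FPKM in mutants.

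**Figure D2:**
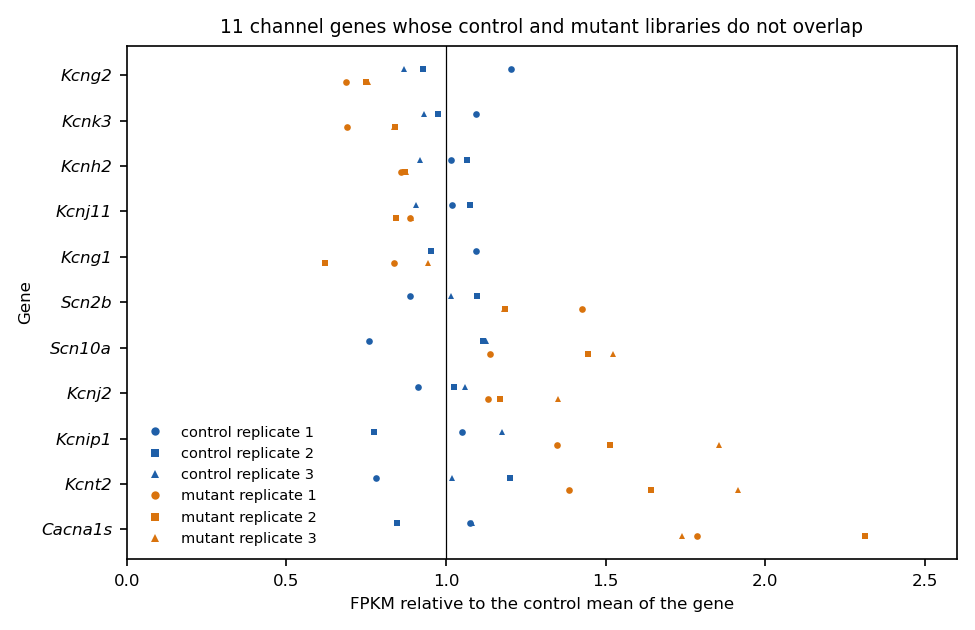
FPKM of each library divided by the control mean of the gene, for 11 channel genes whose 3 control (blue) and 3 mutant (orange) libraries do not overlap. Mutant replicate 2 of Cacna1s lies farthest above 1, while Kcnh2 and Kcnj11 differ by small margins.

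L-type calcium channels carry the calcium current of the plateau. Cacna1c, the gene of the main cardiac pore subunit Cav1.2, stood at 6.47, 10.8 and 11.3 FPKM in the control libraries, with 8.39, 9.94 and 11.3 FPKM in the mutant libraries. The genotypes overlapped, and control replicate 1 was the lowest of the 6 libraries (0.07 ± 0.21, SE, 95% interval -0.42 to 0.56). Cacna1d encodes Cav1.3, which opens at more negative potentials and serves pacemaking, and it stood at 2.12, 3.196 and 3.92 FPKM in control hearts compared with 3.07, 3.55 and 4.22 FPKM in mutant hearts. Again control replicate 1 was lowest, and the difference did not pass (0.19 ± 0.19, SE, adjusted p = 0.840). Cacna1c formed 69.5% to 75.6% of the summed L-type pore FPKM in every library.

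Cacna1s, the gene of the L-type pore subunit of skeletal muscle, was the lowest member in level. It stood at 0.372, 0.293 and 0.374 FPKM in controls, against 0.618, 0.801 and 0.601 FPKM in mutants, and the mutant mean was 1.95 times the control mean. All 3 mutants lay above all controls, with an unadjusted p of 0.0482 and an adjusted p of 0.751 in limma (log2 fold change 0.31 ± 0.13, SE). An antisense gene, Gm37759, covers 20% of its exon bases in the annotation, and reads of the 2 strands cannot be told apart where counting ignores strand. Of 8 skeletal muscle markers, 2 reached the minimum mean, and these went in opposite directions. Acta1 was at 257, 189 and 175 FPKM in controls, against 131, 165 and 115 FPKM in mutants, and Myog, a regulator of muscle differentiation, at 0.254, 0.409 and 0.528 FPKM in controls, against 2.71, 0.5501 and 0.571 FPKM in mutants. Their part in the Cacna1s value was not tested.

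T-type channels open near the resting potential and are prominent in embryonic myocardium. Cacna1h, which encodes Cav3.2, stood at 14.2, 22.1 and 22.3 FPKM in the control libraries, with 19.8, 17.6 and 19.99 FPKM in the mutant libraries. The mutant values lay inside the control range, with means of 19.5 ± 4.63 and 19.2 ± 1.32 FPKM (SD, n = 3 each) and a 95% interval of -0.41 to 0.42 for the log2 fold change. Cacna1g, which encodes Cav3.1 and contributes to pacemaking and atrioventricular conduction, had the largest positive difference of the members, 0.80 ± 0.37 (SE, 95% interval -0.08 to 1.69, adjusted p = 0.772). Its levels were 1.003, 4.22 and 3.01 FPKM in control hearts compared with 7.62, 3.72 and 4.48 FPKM in mutant hearts.

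The Cacna1g difference rested on both replicate 1 libraries, the lowest control and the highest mutant. Without control replicate 1 the log2 fold change was 0.41, without mutant replicate 1 it was 0.55, and within replicates 2 and 3 it was 0.15, with overlapping libraries. Cacna1h made up 72.2% to 93.4% of the summed T-type FPKM, and T-type pore genes together reached 15.2, 26.3 and 25.3 FPKM in the controls, against 27.5, 21.4 and 24.5 FPKM in the mutants. In each library this was above the L-type sum, which was 8.97, 14.3 and 15.6 FPKM in controls, against 12.1, 14.3 and 16.1 FPKM in mutants. Cacna1a, the pore gene of P/Q-type channels known from nerve terminals, was the sole member of its class, with 5.91, 4.24 and 4.64 FPKM in controls, against 5.52, 4.01 and 4.02 FPKM in mutants.

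Auxiliary calcium channel subunits held the most abundant member. Cacna2d2, an alpha2delta subunit gene whose product promotes surface expression of the pore, stood at 36.9, 42.7 and 39.7 FPKM in the control libraries, with 34.2, 46.4 and 42.4 FPKM in the mutant libraries. The libraries overlapped, with a log2 fold change of 0.03 ± 0.13 (SE, 95% interval -0.28 to 0.35). Cacna2d1, the alpha2delta subunit known from adult heart, was at 5.37, 7.03 and 8.47 FPKM in control hearts compared with 7.48, 7.24 and 8.63 FPKM in mutant hearts. Cacna2d2 formed 81.3% to 86.6% of the alpha2delta sum, so the order of the 2 genes was the same in all 6 libraries.

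Of the cytoplasmic beta subunits, which bind the pore and release it from the endoplasmic reticulum, Cacnb2 is the main cardiac form. It stood at 12.7, 18.2 and 17.8 FPKM in controls, against 12.6, 19.2 and 20.6 FPKM in mutants, both replicate 1 libraries being lowest. Cacnb3 was at 7.45, 8.81 and 8.10 FPKM in the control libraries, with 11.4, 7.97 and 7.85 FPKM in the mutant libraries. Cacnb1, the skeletal muscle form, was at 2.55, 3.05 and 2.55 FPKM in control hearts compared with 3.18, 2.71 and 2.44 FPKM in mutant hearts. No beta subunit gene separated the genotypes, and the Cacnb2 share of the beta sum was 45.6% in mutant replicate 1 and 55.4% to 65.8% in the other 5 libraries.

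The gamma family holds calcium channel gamma subunits and the TARP proteins that traffic glutamate receptors. Cacng6, a gamma subunit gene of muscle, was even across libraries, at 7.51, 6.85 and 6.54 FPKM in controls, against 7.05, 6.08 and 6.98 FPKM in mutants. Cacng7, a TARP gene, stood at 2.604, 4.77 and 4.05 FPKM in the control libraries, with 12.9, 4.09 and 3.39 FPKM in the mutant libraries. Mutant replicate 1 was thus 3.18 times the median of the other 5 libraries, and without it the log2 fold change fell from 0.52 to 0.00. Cacng4, another TARP gene, was at 0.506, 0.936 and 0.915 FPKM in controls, against 1.95, 0.783 and 0.991 FPKM in mutants, and was highest in the same library. Cacng6, Cacng7 and Cacng8 are neighbours on chromosome 7, the farthest pair 55974 bases apart, and Cacng8 too was highest in mutant replicate 1 while Cacng6 was not.

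Hcn4, the main pacemaker channel gene of the sinus node and of the embryonic heart tube, did not differ beyond the spread. It lies on chromosome 9 from 58823412 to 58863175 (GRCm38) and stood at 7.61, 7.76 and 7.23 FPKM in control hearts compared with 6.41, 8.18 and 8.49 FPKM in mutant hearts. The mutant libraries lay on both sides of the controls, with mutant replicate 1 the lowest of the 6, and the log2 fold change was 0.02 ± 0.12 (SE, 95% interval -0.26 to 0.30). Hcn3 was at 4.63, 2.50 and 1.56 FPKM in controls, against 2.51, 4.31 and 2.26 FPKM in mutants, and its spread within a genotype was wider than any difference between them. Its 2 highest libraries, control replicate 1 and mutant replicate 2, also had the highest sums of 8 liver markers. These sums were 92.4 and 251 FPKM, beside 2.89 to 28.3 FPKM in the other libraries, and their part in the Hcn3 value was not tested. In the annotation Hcn3 shares 17.1% of its exon bases with Pklr on the opposite strand, so its FPKM is uncertain where counting ignores strand.

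Hcn4 made up 59.8% to 76.6% of the summed FPKM of the 4 HCN genes. Hcn2, an HCN gene of adult ventricle and brain, was at 0.115, 0.180 and 0.209 FPKM in control hearts compared with 0.0680, 0.138 and 0.0275 FPKM in mutant hearts. The order Hcn4, Hcn3, Hcn2 held in all 6 libraries.

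Delayed rectifier potassium channels end the action potential. Kcnh2 encodes the pore of the rapid current, lies on chromosome 5 from 24319589 to 24351604 (GRCm38), and stood at 24.7, 25.9 and 22.3 FPKM in controls, against 20.9, 21.2 and 21.3 FPKM in mutants. All mutants lay below all controls and close to each other. The mean was 24.3 ± 1.82 FPKM in controls and 21.1 ± 0.188 FPKM in mutants (SD, n = 3 each), a difference of -0.19 ± 0.09 on the log2 scale (SE, limma, adjusted p = 0.777). Kcnq1, the pore of the slow current, was at 3.45, 4.06 and 4.19 FPKM in the control libraries, with 3.13, 3.65 and 3.37 FPKM in the mutant libraries, with overlap. Its annotated antisense transcript Kcnq1ot1 covers 2.96% of its exon bases.

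Kcne1 encodes the KCNE subunit that assembles with Kcnq1 and slows its gating. It stood at 26.3, 25.7 and 23.7 FPKM in control hearts compared with 21.8, 28.6 and 24.8 FPKM in mutant hearts, and the libraries overlapped (-0.02 ± 0.12, SE, 95% interval -0.29 to 0.26). Kcne1 lay above Kcnq1 in every library. Kcne1l, the X-linked gene also called Kcne5, was at 24.5, 15.0 and 16.4 FPKM in controls, against 16.7, 13.6 and 12.5 FPKM in mutants, control replicate 1 being the highest. Without that library its log2 fold change moved from -0.35 to -0.14.

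Kcna5 encodes Kv1.5, the ultrarapid rectifier known from atrial myocardium. Its level was 7.47, 6.61 and 7.24 FPKM in the control libraries, with 7.40, 8.04 and 7.36 FPKM in the mutant libraries, a difference of 0.09 ± 0.09 on the log2 scale (SE, 95% interval -0.14 to 0.31). Kcnq5, an M-current subunit gene best known from neurons and smooth muscle, was at 3.67, 3.98 and 4.52 FPKM in control hearts compared with 3.57, 4.61 and 5.10 FPKM in mutant hearts. Both genes overlapped between genotypes. The transient outward current genes were low, with Kcnd2 at 1.06, 1.30 and 1.57 FPKM in controls, against 1.14, 1.29 and 1.79 FPKM in mutants. Kcnd3 was at 0.441, 0.681 and 0.867 FPKM in the control libraries, with 0.618, 0.523 and 0.856 FPKM in the mutant libraries.

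Silent modifier subunits do not form channels alone but combine with Kv2 pores. Kcng2, which encodes Kv6.2 and is known from heart, stood at 17.5, 13.5 and 12.6 FPKM in control hearts compared with 9.95, 10.9 and 11.0 FPKM in mutant hearts. Each mutant lay below each control, control replicate 1 was the highest, and the log2 fold change was -0.41 ± 0.13 (SE, unadjusted p = 0.017, adjusted p = 0.661). Without control replicate 1 the change was -0.28. Kcng1, at 1.13, 0.981 and 0.981 FPKM in controls, against 0.861, 0.638 and 0.973 FPKM in mutants, was also lower in each mutant library, though the closest pair was nearly level. Kcnf1 was at 0.560, 0.462 and 0.477 FPKM in the control libraries, with 0.597, 0.559 and 0.525 FPKM in the mutant libraries. The Kv2 pore gene Kcnb2 was under the minimum.

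Among cytoplasmic Kv auxiliary subunits, Kcnab2 encodes an oxidoreductase-like beta subunit of Kv1 channels. It stood at 3.13, 3.31 and 1.92 FPKM in control hearts compared with 1.71, 2.19 and 1.58 FPKM in mutant hearts, where control replicate 3 fell among the mutants (-0.41 ± 0.18, SE, adjusted p = 0.767). Kcnip1, a calcium-binding KChIP gene of neurons, was at 0.497, 0.366 and 0.556 FPKM in controls, against 0.637, 0.715 and 0.877 FPKM in mutants without overlap (0.24 ± 0.13, SE, adjusted p = 0.799). Kcnip2, the KChIP of the adult ventricular transient outward current, was under the minimum at 0.155, 0.483 and 0.191 FPKM in the control libraries, with 0.328, 0.325 and 0.399 FPKM in the mutant libraries. Over the 7 auxiliary members, 6 had a log2 fold change below 0 and 1 above it, with none past the test.

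Inward rectifiers set the resting potential. The pair that forms the acetylcholine-gated channel of atrium and nodes was Kcnj5, at 22.7, 17.5 and 19.9 FPKM in control hearts compared with 17.0, 19.5 and 19.9 FPKM in mutant hearts, and Kcnj3. Kcnj3 was at 7.38, 7.99 and 8.03 FPKM in controls, against 7.64, 8.21 and 10.002 FPKM in mutants. Neither separated the genotypes, and Kcnj5 exceeded Kcnj3 in every library. An annotated lincRNA on the other strand, Gm26794, covers 31.1% of the Kcnj3 exon bases.

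Kcnj2, the gene of Kir2.1 and the main classical inward rectifier of ventricle, lies on chromosome 11 from 111066164 to 111076821 (GRCm38). It stood at 3.71, 4.17 and 4.31 FPKM in the control libraries, with 4.59, 4.75 and 5.49 FPKM in the mutant libraries. Every mutant lay above every control, with means of 4.06 ± 0.312 and 4.94 ± 0.477 FPKM (SD, n = 3 each) and a difference of 0.23 ± 0.11 on the log2 scale (SE, limma, adjusted p = 0.772). Kcnj12, the related Kir2.2 gene, was at 0.927, 1.28 and 1.44 FPKM in control hearts compared with 0.744, 0.894 and 1.19 FPKM in mutant hearts, with overlap. Both genes were at their lowest in the replicate 1 library of each genotype.

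Kcnj11 encodes Kir6.2, the pore of the ATP-sensitive channel of heart muscle. It stood at 8.66, 9.14 and 7.71 FPKM in controls, against 7.54, 7.18 and 7.56 FPKM in mutants, without overlap and without passing (-0.17 ± 0.10, SE, adjusted p = 0.799). Kcnj8, the Kir6.1 gene of vascular mural cells, was at 0.716, 1.29 and 0.730 FPKM in the control libraries, with 2.06, 0.722 and 0.7504 FPKM in the mutant libraries. Mutant replicate 1 alone was high among the mutants, and without it the Kcnj8 log2 fold change went from 0.15 to -0.13. Of 8 smooth muscle and pericyte markers, Rgs5 and Notch3 were also highest in that library. Rgs5 was at 21.6 FPKM there beside 5.65 to 11.8 FPKM elsewhere, and Notch3 at 9.35 beside 3.69 to 5.49 FPKM. The other markers were not highest there, Cnn1 was at its lowest, and their part in the Kcnj8 value was not tested. Kcnj11 lay above Kcnj8 in every library.

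Leak channels of the two-pore-domain family give a steady potassium conductance. Kcnk3, which encodes the acid-sensitive TASK-1 channel, stood at 19.2, 17.1 and 16.3 FPKM in control hearts compared with 12.1, 14.7 and 14.7 FPKM in mutant hearts. All mutants lay below all controls, mutant replicate 1 being lowest, with means of 17.5 ± 1.49 and 13.9 ± 1.498 FPKM (SD, n = 3 each). The log2 fold change was -0.32 ± 0.11 (SE, limma, unadjusted p = 0.0249, adjusted p = 0.727). Kcnk6 was at 3.998, 3.62 and 3.98 FPKM in controls, against 3.45, 4.16 and 3.59 FPKM in mutants. Kcnk5 was at 1.32, 1.41 and 1.12 FPKM in the control libraries, with 1.68, 1.42 and 1.25 FPKM in the mutant libraries. Neither of these separated the genotypes.

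Calcium-activated channels link potassium flow to cell calcium. Kcnmb1, the beta1 subunit gene of the large-conductance channel in smooth muscle, stood at 7.62, 4.59 and 4.83 FPKM in control hearts compared with 4.82, 5.44 and 4.19 FPKM in mutant hearts, with control replicate 1 the highest. Of 8 smooth muscle and pericyte markers, Acta2, Tagln and Cnn1 were also highest in that library and the other 5 were not. Among those 5, Pdgfrb, Cspg4 and Notch3 were at their lowest there, at 8.42, 3.98 and 3.69 FPKM. The sum of the 8, which is mostly Acta2 and Tagln, was 1499.6 FPKM there beside 815 to 1073 FPKM in the other libraries, and their part in the Kcnmb1 value was not tested. Kcnn4, the intermediate-conductance channel gene of red cells and endothelium, was at 3.90, 4.199 and 2.602 FPKM in controls, against 2.77, 4.15 and 2.99 FPKM in mutants. Its libraries overlapped. Kcnn2, a small-conductance channel gene of atrium, was at 3.44, 3.40 and 2.95 FPKM in the control libraries, with 2.83, 3.41 and 3.52 FPKM in the mutant libraries. Kcnt2, a sodium-activated channel gene, was low and separated, at 0.361, 0.556 and 0.472 FPKM in control hearts compared with 0.642, 0.760 and 0.886 FPKM in mutant hearts (0.27 ± 0.13, SE, adjusted p = 0.777).

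Other members were Kcnh7, Kcna6, Kcnq3, Kcna4, Kcnd1, Kcnab1, Kcnip3, Kcne2, Kcnj6, Kcnk1, Kcnmb4 and Cacng8. Their means ran from 0.526 FPKM for Cacng8 to 2.71 FPKM for Kcnmb4, and their log2 fold changes from -0.19 for Kcnd1 to 0.20 for Kcna6. None of them separated the genotypes. Annotated antisense genes cover 39.6% of the exon bases of Kcna6, and 10.7% and 20.8% of those of Kcnmb4 in 2 separate genes, and 24 of the 60 members share some exon bases with another gene, so these values are uncertain.

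**Figure D3:**
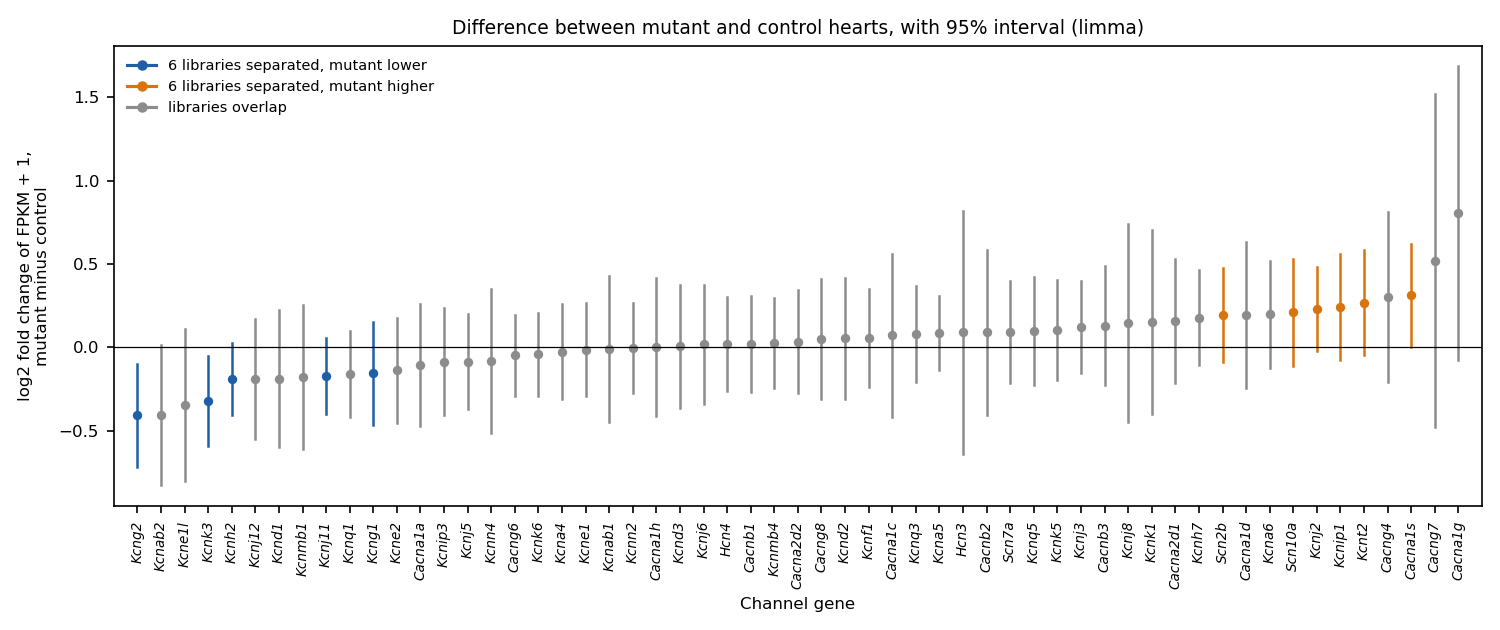
Log2 fold change of FPKM + 1, mutant minus control, with its 95% interval (limma) for each of 57 channel genes in rising order, coloured where the 3 control and 3 mutant libraries do not overlap. Kcng2 lies lowest at -0.41 and Cacna1g highest at 0.80, and the widest intervals, those of Cacna1g and Cacng7, belong to genes for which mutant replicate 1 was far above the other mutants.

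Several members stood far from their own median in 1 library. The deviation of each library from the median of the 6 libraries exceeded 0.5 on the log2 scale for 6 members in control replicate 1 and 5 in mutant replicate 1. It did so for 1 member in mutant replicate 2, 1 in mutant replicate 3, and 0 in control replicates 2 and 3. As shares of the members these are 10% and 8.33% in the replicate 1 libraries, beside 10.7% and 5.79% of all genes tested. The members high in mutant replicate 1 were Cacng7, Kcnj8, Cacna1g, Kcnk1 and Cacng4. Kcnk1, the TWIK-1 leak channel gene, stood at 1.62, 0.530 and 0.449 FPKM in mutants and at 0.622, 0.635 and 0.606 FPKM in controls.

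In the same library Isl1, a transcription factor gene of second heart field, pacemaker and neural cells, stood at 10.5 FPKM, beside 2.44 to 3.35 FPKM in the other 5. It was singled out after its values were seen. The 16 neural and neural crest markers summed to 22.5 FPKM in mutant replicate 1 and to 14.8 to 17.8 FPKM in the other libraries, and 9 of the 16 reached the minimum mean. The cardiomyocyte markers, as given above, were lowest in that library. Whether cells of another type contributed to these channel values was not tested.

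**Figure D4:**
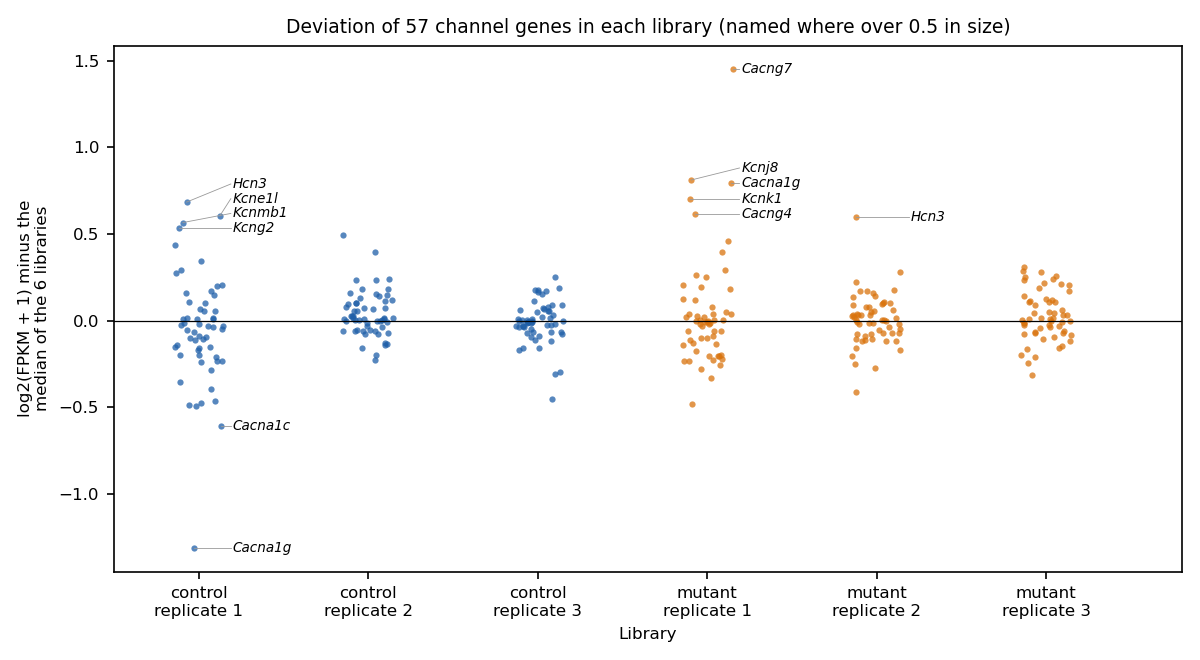
Deviation of log2(FPKM + 1) of each of 57 channel genes from its own median over the 6 libraries, by library, with 1 point per gene and names where the deviation exceeds 0.5 in size. Control replicate 1 and mutant replicate 1 spread widest, with Cacna1g lowest in the former and Cacng7 highest in the latter.

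Genes that work with these channels were taken from 3 other lists of 73 genes, of which 68 were tested. Of 30 tested membrane partners, 0 were lower and 0 higher (limma, adjusted p under 0.05), with a median log2 fold change of -0.04. At an unadjusted p under 0.05, 3 were lower and 2 higher, beside 4.17% lower and 2.45% higher of all genes tested. Calm2, the calmodulin gene with the highest mean of the list, was at 452, 418 and 408 FPKM in controls, against 381, 421 and 401 FPKM in mutants. Fgf12, an intracellular fibroblast growth factor homologue that binds sodium channels and was singled out after its values were seen, was higher in each mutant. It stood at 1.32, 1.25 and 1.05 FPKM in the control libraries, with 2.38, 2.05 and 2.37 FPKM in the mutant libraries (0.56 ± 0.12, SE, adjusted p = 0.282).

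Of 20 calcium handling genes and exchangers, 0 passed in either direction in limma, with 1 lower and 0 higher at an unadjusted p under 0.05 and a median of -0.02. Atp2a2, the calcium pump of the sarcoplasmic reticulum and the most abundant of them, was at 355, 361 and 380.3 FPKM in control hearts compared with 354, 405 and 395 FPKM in mutant hearts. Of 18 tested conduction and pacemaker regulators, 1 was lower and 0 were higher at an adjusted p under 0.05, with a median of -0.04. At an unadjusted p under 0.05, 1 was lower and 2 were higher, beside 4.17% lower and 2.45% higher of all genes tested. The lower gene was Irx5, an Iroquois factor that patterns repolarization across the ventricular wall, at 10.3, 8.98 and 8.21 FPKM in controls, against 4.13, 4.22 and 4.15 FPKM in mutants (-0.97 ± 0.11, SE, adjusted p = 0.0274). It lost the call in all 6 fits that left out a library, with an adjusted p of 0.0624 to 0.27. Id2, with the highest mean of this list, was at 207, 162 and 163 FPKM in the control libraries, with 176, 172 and 171 FPKM in the mutant libraries. Tbx3, a repressor that maintains the conduction system and was also singled out after its values were seen, was at 4.34, 4.75 and 5.19 FPKM in control hearts compared with 6.83, 5.85 and 6.66 FPKM in mutant hearts, without overlap and without passing (adjusted p = 0.573).

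Position was a further property the choice by name did not use. All 60 members were found in GENCODE release M21 on GRCm38 and all are protein coding. They lie on 18 chromosomes, with 8 on chromosome 7 and 7 each on chromosomes 2 and 11. There were 7 pairs of members within 500 kb of each other, among them Kcne1 with Kcne2, Kcna5 with Kcna6, and Kcnip1 with Kcnmb1. Neighbours could differ in level, as Kcne1 at 25.2 FPKM and Kcne2 at 0.812 FPKM, or be close, as Cacng6 at 6.84 FPKM and Cacng7 at 5.29 FPKM.

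Promoter windows from RefSeq (GRCm38.p6, 250 bases before to 50 after a start) were matched for 42 members, in 59 windows. The 2 windows printed here belong to the pacemaker channel gene Hcn4, which did not separate the genotypes, and to the inward rectifier gene Kcnj2, which did. That of Hcn4 is chr9:58822699-58822998 and that of Kcnj2 is chr11:111065914-111066213, both on the plus strand and written 5′ to 3′, and the RefSeq start of Hcn4 lies before the GENCODE one given above. Capitals mark matches on either strand to 4 motifs, the GATA motif AGATAA, the T-box half-site AGGTGT, the TATA motif TATAAA and the GC box GGGCGG.
Hcn4: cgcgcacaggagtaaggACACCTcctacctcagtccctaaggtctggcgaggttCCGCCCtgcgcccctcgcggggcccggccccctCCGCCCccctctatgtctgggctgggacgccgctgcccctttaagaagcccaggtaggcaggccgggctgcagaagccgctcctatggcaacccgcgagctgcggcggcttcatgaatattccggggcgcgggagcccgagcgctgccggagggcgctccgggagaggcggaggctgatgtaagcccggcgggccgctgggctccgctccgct
Kcnj2: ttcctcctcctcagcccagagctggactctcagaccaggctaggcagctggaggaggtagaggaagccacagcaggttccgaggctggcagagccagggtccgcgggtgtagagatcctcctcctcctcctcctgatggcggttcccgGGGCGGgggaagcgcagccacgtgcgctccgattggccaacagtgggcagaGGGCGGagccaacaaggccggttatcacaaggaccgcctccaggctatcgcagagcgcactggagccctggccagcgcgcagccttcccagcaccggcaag
Hcn4 holds 1 T-box match and 2 GC boxes, and Kcnj2 holds 2 GC boxes. GC boxes stood in 50.8% of the channel windows beside 35.7% of all 32851 windows of this length. T-box half-sites stood in 13.6% beside 13.7%, GATA motifs in 3.39% beside 11.2%, and TATA motifs in 3.39% beside 13.6%. These are matches of letters, and no measurement in the series bears on binding.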

How the data were processed

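Trizol was used for extraction and a TruSeq RNA kit for the libraries, per the labels' protocols. The authors deposited 1 table of FPKM values for 38918 genes. The build mm10 and the tools HTSeq, Cuffdiff, Cufflinks (2.2.1) and TopHat2 (2.0.9) are named, without role or order, per the submitters' processing notes. Neither strand setting nor annotation release is given in the sources used here. FPKM gives no counts, so depth is unknown and no counting error could be given.

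Values were analysed as log2(FPKM + 1) in limma (3.58.1, R 4.3.3), fitted with a mean-variance trend and without a block to 14378 genes. These reached an average of 0.5 FPKM, the minimum that also chose the members. A pseudocount of 1 understates the change of low genes. Residual degrees of freedom were 4 and prior degrees of freedom 3.21. Alternatives were 15: other pseudocounts, filters and scalings, a replicate block, replicates 2 and 3 alone, no trend, and each library left out.

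Members, role classes and lists were chosen with earlier results of these data known. The text gives library values for the 3 most abundant members of each role, for members with a known cardiac current, and for up to 5 members in each direction, largest change first, whose libraries do not overlap. Annotation came from GENCODE M21. Some genes are counted among the members but not reported here by name, and the figures leave them out.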

Additional observations from a re-analysis of the deposited data

How the results depend on the processing

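No channel gene was called under any of the 15 alternatives, in 885 refitted values. In 806 of these values the sign was that of the reported fit and in 79, from 29 genes, it was not. These 29 genes include Hcn4, whose log2 fold change ran from -0.05 to 0.14. Under no alternative did the median log2 fold change of all genes leave the range of -0.02 to 0.005. Tek was called in 14 of 15 alternatives, and not within replicates 2 and 3 (adjusted p = 0.157).

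Separated channel genes numbered 6 lower and 6 higher. Within replicates 2 and 3 they numbered 18 lower and 14 higher, where 2 libraries face 2 and overlap is less likely by construction. At a mean of at least 1 FPKM, which leaves 45 members, 2 were higher. Without 1 library the counts ran from 7 to 12 lower and from 7 to 11 higher, the highest of both without mutant replicate 1. The share of all genes that separated under these alternatives was not counted, so these counts say nothing of channel genes in particular. Over all genes, 15 were called lower and 7 higher. No filter on low values gave 7 lower, replicates 2 and 3 alone gave 0, and leaving out 1 library gave 2 to 8 lower and 6 to 11 higher. The call of Irx5, 1 lower gene in the other lists, ended with 0 under no filter, the replicate block, replicates 2 and 3 alone, and 0 to 0 without 1 library.

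Replicate numbers are shared between genotypes. Control and mutant libraries of the same number had correlations of their deviations from group means of 0.175, 0.025 and 0.22 over all genes tested, and since not every pair exceeded 0.1 the numbers were not taken as pairs. Every mutant library correlated best with the control of its own number in both sets of genes. Control replicate 2 correlated best with mutant replicate 3 over all genes tested. Over the 14087 genes it correlated at 0.094 with mutant replicate 2 and 0.091 with mutant replicate 3. With the replicate block in limma, 0 channel genes were called, and over all genes 11 were called lower and 6 higher. At an unadjusted p under 0.05 there were 5 channel genes, all lower. The share of all genes at that unadjusted p was not counted with the block, so no direction is read from these 5. Unknown depth limits what can be said of the 15 members under 1 FPKM.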

Other observations

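Of the 77 channel rows under the minimum, 3 were listed at 0 in all 6 libraries and 35 at 0 in at least 1. Some of these low genes also had libraries that did not overlap, as did 13.4% of the genes tested, which all reached the minimum. Their share of the 77 rows was not counted. Examples are given as values without a test. Kcnn1, a small-conductance channel gene, stood at 0.284, 0.358 and 0.346 FPKM in controls, against 0.684, 0.608 and 0.562 FPKM in mutants. Kcnj4, an inward rectifier gene, stood at 0.477, 0.447 and 0.670 FPKM in the control libraries, with 0.304, 0.331 and 0.0604 FPKM in the mutant libraries. Kcnc2, a fast delayed rectifier gene of neurons, stood at 0.0995, 0.136 and 0.267 FPKM in control hearts compared with 0.557, 0.331 and 0.356 FPKM in mutant hearts. Scn8a, a sodium channel gene of neurons, stood at 0.218, 0.293 and 0.118 FPKM in controls, against 0.598, 0.386 and 0.317 FPKM in mutants. These genes were singled out after their values were seen. Other low genes did not overlap either, such as Kcnj14, lower in mutants, and Kcnab3, higher in mutants.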
